A study of Mus musculus with 6 samples.

Results

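The genes described here are 44 genes that carry a cell through mitosis and cytokinesis, measured in heart ventricles of mouse embryos that lack skNAC and in ventricles of wild-type littermates. skNAC is the muscle-specific long form of the nascent polypeptide-associated complex alpha protein, encoded by Naca. The members were chosen by name for their function, and each was represented by its brightest probe set carrying its symbol alone. Of the 44, 43 were tested among 11661 genes, and the cyclin gene Ccnb1 had no such probe set and is not analysed here. All 43 lay above the level at which probe sets were kept, a mean on the log2(signal + 16) scale that corresponds to a MAS5 signal of 95.2.

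Ventricles came from embryos of strain 129SvEv at stage E11.5, and the labels place the death of embryos with the targeted deletion by E12.5. There were 3 knockout arrays, numbered 1, 26 and 66 in their titles, and 3 wild-type arrays, numbered 13, 23 and 57. Each array was made from 500 ng of total RNA. The labels call the embryos littermates but do not say which arrays shared a litter, nor whether an array held 1 heart or several, and the p-values measure only the spread between these samples. The labels name the deletion as targeted and name no cell type or promoter that would restrict it. The 2 probe sets of Naca are not tied to the skNAC exon in the annotation used, so their log2 differences of 0.08 ± 0.08 and 0.08 ± 0.11 check nothing about the deletion. All 10 cardiomyocyte markers listed, among them Tnnt2, Actn2 and Nkx2-5, were above the level at which probe sets were kept. In such bulk tissue, a change in the number of dividing cells and a change in mitotic RNA per dividing cell cannot be told apart.

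As background, transcripts of this group build up in G2 and mitosis and are removed or silenced as a cell returns to G1, so their level in a tissue follows the share of its cells that are cycling. Cyclin-dependent kinase activity starts mitosis, the spindle checkpoint holds it until every kinetochore is attached, the anaphase-promoting complex ends it, and a contractile ring divides the cell. Cardiomyocytes of the embryonic ventricle divide while they beat, which thickens the wall. Many promoters of the group carry a CHR element (cell cycle genes homology region), which binds the MuvB core of the DREAM and MYB-MuvB complexes, and CCAAT boxes, which bind NF-Y.

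The promoters of the members were set beside those of other genes because the choice of members made no use of sequence. RefSeq promoter windows on GRCm38.p6, from 250 bases before to 50 bases after the start, were held for 37 of the 44 members. Where a gene had several windows the first listed was taken. The motifs TTTGAA and TTCGAA (both CHR-type) and CCAAT were searched on both strands, and a CCAAT box was allowed to share a base with a hexamer. The windows below belong to the 5 members of smallest p, among those described array by array, that had a window in the table. They run from 150 bases before to 30 bases after the start, 5′ to 3′ along the gene's strand, and capitals mark motif matches lying wholly inside the printed stretch.
Cenpf (chr1:189688057-189688236, minus strand): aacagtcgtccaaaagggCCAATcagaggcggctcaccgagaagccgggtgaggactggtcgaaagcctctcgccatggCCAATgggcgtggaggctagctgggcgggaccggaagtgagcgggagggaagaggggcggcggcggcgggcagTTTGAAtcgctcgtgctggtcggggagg
Hmmr (chr11:40733408-40733587, minus strand): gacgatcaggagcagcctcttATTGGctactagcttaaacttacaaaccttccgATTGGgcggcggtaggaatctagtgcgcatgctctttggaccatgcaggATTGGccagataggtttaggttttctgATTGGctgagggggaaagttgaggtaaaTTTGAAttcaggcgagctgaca
Smc2 (chr4:52439071-52439250, plus strand): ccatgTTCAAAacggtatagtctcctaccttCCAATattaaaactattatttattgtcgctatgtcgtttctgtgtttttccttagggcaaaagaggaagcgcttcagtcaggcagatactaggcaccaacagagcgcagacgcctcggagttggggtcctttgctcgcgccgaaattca
Cdca8 (chr4:124936888-124937067, minus strand): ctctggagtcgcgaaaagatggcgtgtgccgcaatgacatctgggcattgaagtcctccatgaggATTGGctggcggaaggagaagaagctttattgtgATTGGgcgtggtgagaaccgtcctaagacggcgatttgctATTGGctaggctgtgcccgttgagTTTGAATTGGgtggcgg
Pttg1 (chr11:43425952-43426131, minus strand): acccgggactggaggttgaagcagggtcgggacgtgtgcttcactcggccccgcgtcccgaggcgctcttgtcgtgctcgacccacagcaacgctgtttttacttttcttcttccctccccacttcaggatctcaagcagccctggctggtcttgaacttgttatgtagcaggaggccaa

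In the Cenpf, Hmmr and Cdca8 windows 2 to 4 CCAAT boxes or their reverse complement ATTGG were accompanied by a TTTGAA shortly after the start, at position 3 in Cenpf, 9 in Hmmr and 14 in Cdca8. Smc2 had a reversed TTTGAA at -145 and another at 27, which runs past the printed end, with a single CCAAT at -119. Pttg1 had none of the 3 motifs in its 300 bases.

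Over all 37 member windows, TTTGAA was found in 29, or 78.4%, against 18.1% of 27025 genes with a window and 12.2% of the 9454 of these that were tested on the arrays. The gap between members and all genes was wider near the start. From 50 bases before to 50 after it, 26 of 37 members (70.3%) held TTTGAA, against 4.92% of all windows, while further upstream 24.3% of members and 14.1% of all windows did. CCAAT was found in 31 members (83.8%) against 37.9% of all windows, and 21 members (56.8%) had 2 or more against 12.2%. TTCGAA was found in Bub1, Bub1b and Top2a, 8.11% of members, against 1.57% of all windows.

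By subgroup, all 5 cytokinesis windows and all 5 condensin and chromosome windows held TTTGAA, as did 4 of 6 among cyclins and kinases and 5 of 8 among checkpoint and kinetochore genes, and 1 of the 2 passenger complex windows. For comparison, 25 genes of S phase and replication had CCAAT in 17 windows but TTTGAA in 2, of which 1 was within 50 bases of the start. Among 58 windows of other mitosis genes, 23 held TTTGAA within that distance. A match is a description of letters and not a binding site.

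**Figure D1:**
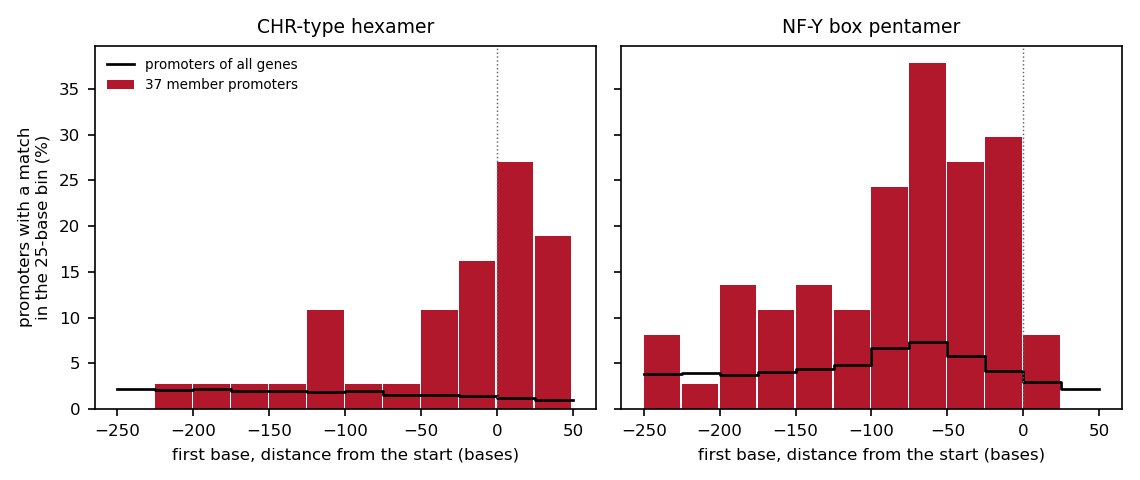
Share of promoter windows with a motif match whose first base falls in each 25-base bin, by distance from the start in bases. Red bars are 37 member promoters and the black line is 27025 promoters of all genes; the left panel is TTTGAA, the CHR-type hexamer, and the right panel CCAAT, the NF-Y box. Members exceed the line most from 50 bases before the start onwards for the hexamer and from 100 bases before it up to the start for CCAAT.

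In the comparison of genotypes, which asked which transcripts differ in the knockout heart, no mitosis or cytokinesis gene passed limma's test after Benjamini-Hochberg adjustment over all 11661 genes. The count was 0 of 43 members and 0 genes in all (0%), and every member had an adjusted p of at least 0.974. At an unadjusted p under 0.05 there were 3 members, 6.98% of 43, where all genes gave 4.69%. Aurkb and Hmmr were higher in knockout (4.65%, against 2.18% of all genes) and Cenpf was lower (2.33%, against 2.51%). Each difference given with ± is the knockout mean less the wild-type mean, with its SE, on the log2(signal + 16) scale over 3 arrays a genotype. Such differences understate the change of dim genes. Of 43 members, 27 were above 0 (62.8%, against 50.4% of all genes), with a median of 0.026 against 0.002 over all genes tested.

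On the brightest probe set, the 95% interval of every tested member lay within -1 and 1, that is within a 2-fold change either way on this scale, and for 29 of 43 it lay within -0.5 and 0.5. The widest reach was 0.95 upwards, in Aurkb, and -0.81 downwards, in Nek2. Over all 87 kept probe sets, 5 dimmer ones had intervals reaching past these bounds, to 1.04 in Cdca3 and to -1.07 in Hmmr, -1.12 in Kif2c, -1.02 in Prc1 and -1.01 in Tpx2. The median SE was 0.14 over members and 0.19 over all genes. In 40 members the difference was smaller than 0.25 in either direction.

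**Figure D2:**
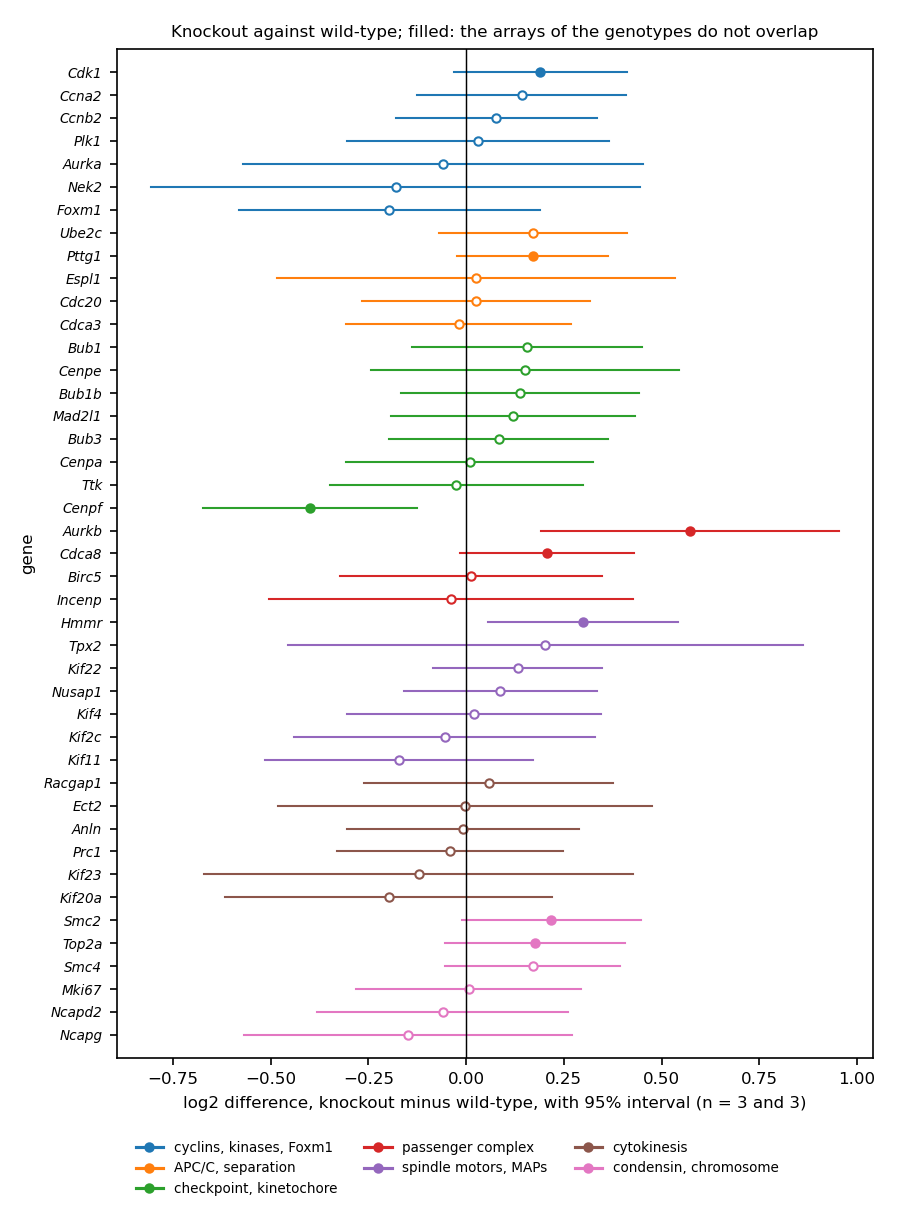
Log2 difference, knockout minus wild-type, for 43 members with its 95% interval, grouped and coloured by function. Filled circles are the 8 members whose 3 knockout arrays do not overlap the 3 wild-type arrays: Cenpf is the only filled circle below 0, and 40 of the 43 intervals cross 0.

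Arrays of the 2 genotypes did not overlap in 8 members, 18.6% of 43, where all genes gave 10.9%. Cdk1, Pttg1, Aurkb, Cdca8, Hmmr, Smc2 and Top2a were higher in all knockout arrays (16.3%, against 5.4% of all genes) and Cenpf was lower (2.33%, against 5.45%). After centring each array on its median the count was 3, or 6.98%, where all genes gave 8.22%. Probe sets ending in _x_at or _s_at can read related transcripts, and leaving them out gave 5 of 42, or 11.9%, where all genes gave 10.7%. Averaging all kept probe sets of each gene gave 4, of which 2 were lower, or 9.30% where all genes gave 10.9%. Under these 3 settings the members' share, both directions together, was near or below that of all genes. The members higher in knockout then numbered 2, 4 and 2, and the share of all genes by direction was not computed for these settings. Quantile normalization gave 6, of which 5 were higher, or 13.95% where all genes gave 11.3%.

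Among the cyclins and kinases that start mitosis, Cdk1, the catalytic partner of the mitotic cyclins, had signals of 2463, 2475 and 2657 on knockout arrays 1, 26 and 66, against 2296, 2304 and 2060 on wild-type arrays 13, 23 and 57. Its knockout arrays lay just above the wild-type arrays, with the difference at 0.19 ± 0.10 and an unadjusted p of 0.0867 in limma. Ccna2, the cyclin of S phase and early mitosis, read 2040, 1693 and 1610 on the same knockout arrays, against 1728, 1514 and 1579 on the wild-type arrays. Its high knockout mean came from knockout 1, and the genotypes overlapped (0.14 ± 0.12). Its second probe set gave 0.04.

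The intervals of Cdk1, Ccna2 and the other tested members of this subgroup all crossed 0. Ccnb2, a B-type cyclin, gave 0.08 ± 0.12 and Plk1, the polo-like kinase that acts at centrosomes, kinetochores and the midbody, 0.03 ± 0.15. Aurka, the kinase of spindle poles, read 542, 468 and 275 on knockout arrays 1, 26 and 66, against 494, 446 and 362 on wild-type arrays 13, 23 and 57. Nek2, a centrosome-separating kinase, read 399, 431 and 177 against 343, 319 and 416. In both genes knockout 66 was the lowest of the 6 arrays and the other knockout arrays lay within or above the wild-type range. Nek2 gave -0.18 ± 0.28, while its other 2 kept probe sets gave 0.11 and 0.32. Foxm1, the transcription factor that drives many genes of this group, read 246 ± 30.2 (SD, n = 3) in knockout and 284 ± 26.2 in wild-type, with -0.20 ± 0.17 on its brightest probe set and -0.36 ± 0.26 on the other kept.

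Of the genes that end mitosis, Pttg1, which encodes securin, the inhibitor of separase, had the brightest signals. It read 9350, 9289 and 10145 on knockout arrays 1, 26 and 66, against 8829, 8797 and 7959 on wild-type arrays 13, 23 and 57, without overlap (0.17 ± 0.09, unadjusted p = 0.0775 in limma). The other 2 probe sets gave 0.02 and -0.24, and their mean with the brightest was -0.016. Ube2c, the ubiquitin-conjugating enzyme of the anaphase-promoting complex, read 3482, 3680 and 2930 against 2823, 3079 and 3021. Knockout 66 lay inside the wild-type range (0.17 ± 0.11).

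The remaining members of this subgroup lay near 0. Cdc20, the mitotic activator of the complex, read 3009, 2662 and 2103 on knockout arrays 1, 26 and 66, against 2679, 2511 and 2377 on wild-type arrays 13, 23 and 57, so the knockout arrays spanned the wild-type range on both sides (0.03 ± 0.13). Espl1, which encodes separase and was the dimmest member, gave 0.03 ± 0.23. Its mean signals were 181 ± 45.2 (SD, n = 3) in knockout and 174 ± 17.4 in wild-type. Cdca3, a mitotic entry factor that promotes the breakdown of Wee1, gave -0.02 ± 0.13, and its other probe sets gave 0.15 and 0.33.

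Cenpf, a large protein of the outer kinetochore and the nuclear matrix in G2, had the lowest difference of the 43 members. It read 899.7, 1098 and 1133 on knockout arrays 1, 26 and 66, against 1309, 1393 and 1426 on wild-type arrays 13, 23 and 57. Every knockout array lay below every wild-type array, and knockout 1 was farthest down. The difference was -0.40 ± 0.12, a 0.758-fold ratio, with an unadjusted p of 0.0082 and an adjusted p of 0.974 in limma. Its second kept probe set pointed the same way, at -0.32 ± 0.20, with 214, 143 and 201 in knockout against 242, 232 and 227 in wild-type, again without overlap. The difference stayed below 0 in all 17 alternatives, between -0.46 and -0.30, with adjusted p from 0.196 to 1.00.

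Of the 5 checkpoint genes, all but Ttk were above 0 on their brightest probe set. Bub1, a checkpoint kinase, read 1151, 997 and 898 on knockout arrays 1, 26 and 66, against 821, 966 and 934 on wild-type arrays 13, 23 and 57, with overlap (0.16 ± 0.13), and its other probe set gave 0.20. Bub1b, which encodes BubR1 of the mitotic checkpoint complex, gave 0.14 ± 0.14 and 0.13 ± 0.16 on its kept probe sets. Mad2l1, the checkpoint protein that binds Cdc20, gave 0.12 ± 0.14, and its highest array was knockout 1 at 2302 against 1564 to 1847 in wild-type. Bub3 gave 0.08 ± 0.13 and -0.08 ± 0.15, and the kinase gene Ttk -0.03 ± 0.15.

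Of the other centromere genes, Cenpe, the kinetochore motor that brings chromosomes to the metaphase plate, gave 0.15 ± 0.18 and 0.34 ± 0.22. Cenpa, the histone variant of centromeres, had a mean of 1549 ± 224 (SD, n = 3) over knockout arrays and of 1539 ± 227 over wild-type arrays, a difference of 0.01 ± 0.14. Of the 8 checkpoint and kinetochore genes, 6 were above 0 with a median of 0.10, and none passed the test.

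The chromosomal passenger complex, which corrects faulty kinetochore attachments and later sits at the spindle midzone, has 4 subunits. The gene of its kinase, Aurkb, gave the largest difference of any member. It read 342.5, 405 and 406 on knockout arrays 1, 26 and 66, against 295, 217 and 250 on wild-type arrays 13, 23 and 57, without overlap. The difference was 0.57 ± 0.17, a 1.49-fold ratio, with an unadjusted p of 0.0069 and an adjusted p of 0.974 in limma. The second Aurkb probe set, of similar signal, gave 243, 315 and 154 against 256, 207 and 232 (-0.02 ± 0.24). The mean of both gave 0.28. The brighter one ends in _x_at and the other in _s_at, so no probe set outside those classes was kept for Aurkb.

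The partners of Aurkb were nearer 0. Cdca8, which encodes borealin, read 4941, 4272 and 4046 on knockout arrays 1, 26 and 66, against 3928, 3725 and 3796 on wild-type arrays 13, 23 and 57. All knockout arrays were above all wild-type arrays by a narrow margin (0.21 ± 0.10), while its other probe sets gave 0.10 and -0.10. The latter is the only kept Cdca8 probe set outside those classes. Birc5, which encodes survivin, read 1737, 1651 and 1355 against 1762, 1713 and 1253 (0.01 ± 0.15). Incenp, the scaffold of the complex, read 3025, 2241 and 1509 against 2653, 2076 and 2016 (-0.04 ± 0.21). In Incenp knockout 1 was the highest and knockout 66 the lowest of the 6 arrays.

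Among spindle motors and microtubule-binding proteins, Hmmr, a hyaluronan receptor that also binds spindle microtubules, read 1188, 1197 and 1208 on knockout arrays 1, 26 and 66, against 957, 936 and 1021 on wild-type arrays 13, 23 and 57. The knockout arrays were nearly equal and all above wild-type (0.30 ± 0.11, unadjusted p = 0.0202 and adjusted p = 0.974 in limma). The other 4 kept probe sets of Hmmr ran from -0.51 to 0.10, with 2 below 0, and the mean over all 5 was -0.018. The dimmest of them read 110, 74.2 and 101 in knockout against 144, 135 and 142 in wild-type, without overlap in the opposite direction.

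Kif22, a chromokinesin, read 4611, 4617 and 3926 on knockout arrays 1, 26 and 66, against 4091, 3920 and 3955 on wild-type arrays 13, 23 and 57, with knockout 66 inside the wild-type range (0.13 ± 0.10). Its other probe sets gave -0.03 and -0.18, and the latter is the only 1 outside the _x_at and _s_at classes. Kif11, the motor that pushes spindle poles apart, was below 0 on each of its 3 kept probe sets, from -0.17 to -0.07. The microtubule depolymerase Kif2c gave -0.05 ± 0.18, the chromokinesin Kif4 0.02 ± 0.15 and the microtubule-bundling gene Nusap1 0.09 ± 0.11. The intervals of Kif22 and of each of these genes crossed 0.

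Tpx2, which activates Aurka on spindle microtubules, was uneven between its probe sets. The brightest read 2090, 2757 and 6141 on knockout arrays 1, 26 and 66, against 3006, 2509 and 3077 on wild-type arrays 13, 23 and 57, so knockout 66 alone was high, at 0.20 ± 0.30. A second probe set had the same outlying array, at 1324, 1633 and 3993 against 2689, 2498 and 2561, yet its difference was -0.33 ± 0.31. The other 2 did not have knockout 66 high: it read 383, the lowest of the 6 arrays, in the first (-0.01 ± 0.15) and 244, within the wild-type range, in the second (-0.03 ± 0.24). The direction of the brightest probe set was not that of any other probe set of the gene.

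The cytokinesis genes were the subgroup in which most members lay below 0, 5 of 6, but the median was only -0.025 and none passed the test. Kif20a, the midzone motor that carries the passenger complex, read 481, 452 and 303 on knockout arrays 1, 26 and 66, against 483, 513 and 408 on wild-type arrays 13, 23 and 57 (-0.20 ± 0.19). Kif23, the motor subunit of centralspindlin, read 549.6, 420 and 247 against 491, 412 and 370 (-0.12 ± 0.25). In both, knockout 66 was the lowest array, and without it Kif20a was at 0.0002 and Kif23 at 0.18.

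Knockout 66 was also the lowest of the 6 arrays in Ect2 and Anln, and the lowest knockout array in Racgap1. Ect2, the exchange factor that switches on RhoA at the cell equator, read 1985, 1434 and 937 on knockout arrays 1, 26 and 66, against 1422, 1497 and 1262 on wild-type arrays 13, 23 and 57. Knockout 1 lay above the wild-type range and knockout 66 below it, and the difference was -0.003 ± 0.22. Anln, the ring scaffold anillin, gave -0.01 ± 0.13 with knockout 66 lowest at 1052. Racgap1, the partner of Kif23 in centralspindlin, gave 0.06 ± 0.14 with knockout 66 at 427, above only wild-type 23 at 423. Prc1, which bundles the midzone microtubules, gave -0.04 ± 0.13 on a probe set where knockout 66 read 1321 within the wild-type range, and -0.42 ± 0.27 on another where it was the lowest, at 182.

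Of the condensin and chromosome genes, the ATPase subunits Smc2 and Smc4 were higher in knockout on their brightest probe sets. Smc2 read 2743, 2619 and 2310 on knockout arrays 1, 26 and 66, against 2159, 2161 and 2256 on wild-type arrays 13, 23 and 57, without overlap (0.22 ± 0.10, unadjusted p = 0.0603 in limma). Its other kept probe sets gave 0.19 and -0.36, and the mean over its probe sets was 0.01. Smc4 read 3624, 3751 and 3414 against 2877, 3421 and 3308, with knockout 66 just below wild-type 23 (0.17 ± 0.10), and its other probe sets gave 0.10 and -0.11. The non-SMC subunits Ncapd2 and Ncapg gave -0.06 ± 0.15 and -0.15 ± 0.19, so the subunits of this complex did not lie on the same side of 0.

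Top2a, the topoisomerase that untangles sister chromatids, read 1811, 1903 and 1822 on knockout arrays 1, 26 and 66, against 1525, 1754 and 1620 on wild-type arrays 13, 23 and 57. Knockout arrays were all above wild-type arrays (0.18 ± 0.11). A dimmer probe set separated the genotypes in the opposite direction, at 165, 231 and 142 against 241, 234 and 238 (-0.40 ± 0.21), and the mean of both was -0.11. Mki67, the chromosome surface protein Ki-67 widely used as a marker of cycling cells, read 2441, 2067 and 1882 against 1915, 2022 and 2419. The genotypes overlapped over nearly their whole range, at 0.01 ± 0.13.

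**Figure D3:**
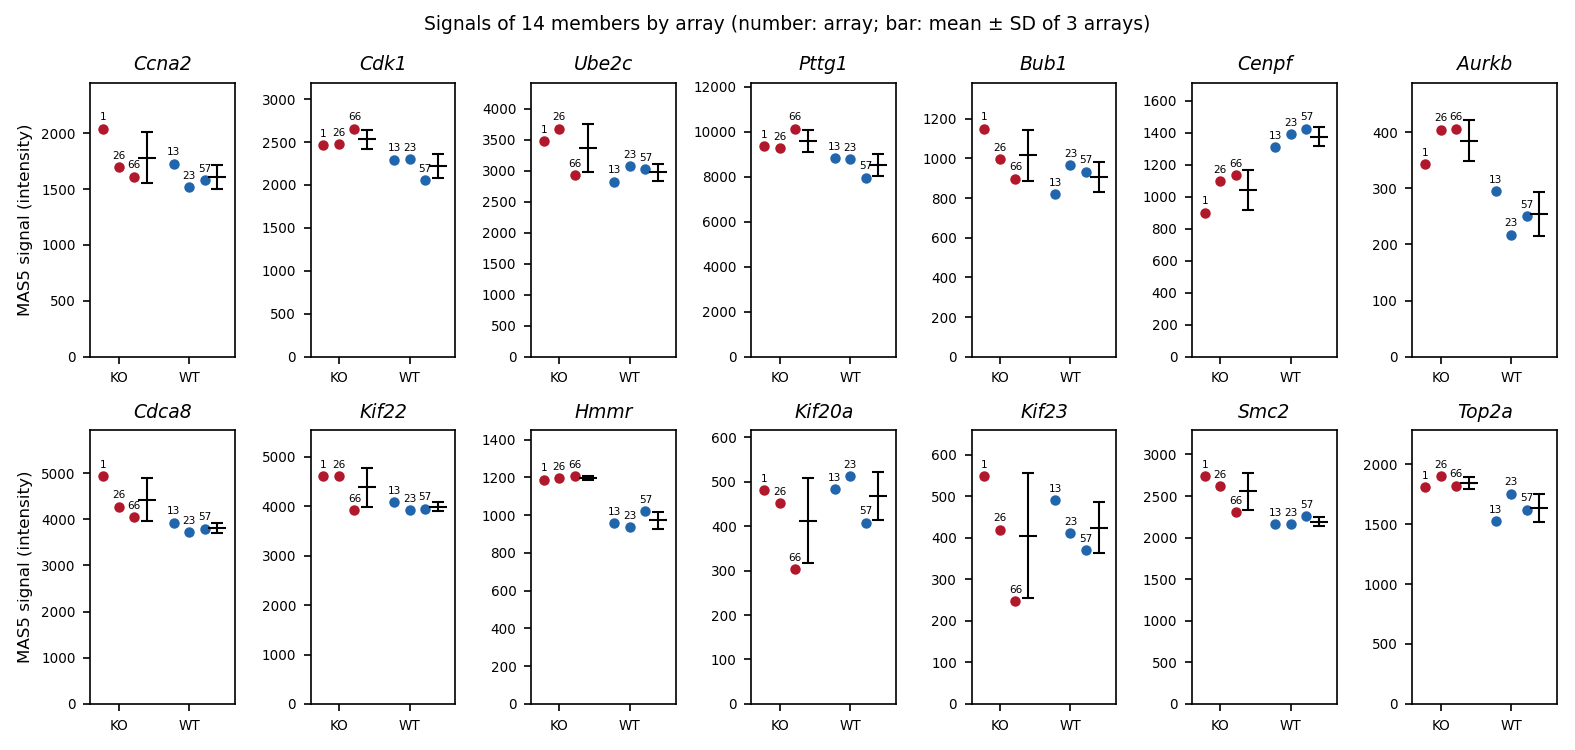
MAS5 signal (intensity, axes from 0) of 14 members on each knockout (KO, red) and wild-type (WT, blue) array, with the array number above each point and the mean ± SD of 3 arrays beside it. Cenpf is lower and Aurkb and Hmmr are higher in all knockout arrays, while Kif20a and Kif23 show knockout 66 below the other arrays.

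Several probe sets per gene allow a check within the arrays. The 43 members had 108 probe sets with their symbol alone, of which 87 were kept, and 43 of those 87 were above 0. Of 29 members with more than 1 kept probe set, 16 had at least 1 that lay on the other side of 0 from the brightest. The same share was not computed over all genes, so these counts do not set the members apart from other genes. Among the 8 members whose brightest probe set separated the genotypes, Cdk1 had no other, Cenpf had a second of the same sign, and the other 6 each had at least 1 of opposite sign.

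The members also differed between arrays of the knockout group. On each array the median deviation of the 43 members from their own means over 6 arrays was 0.14 in knockout 1, 0.06 in knockout 26 and -0.10 in knockout 66, against -0.03, -0.04 and -0.08 on wild-type arrays 13, 23 and 57. Knockout 1 was the highest of the 6 arrays for 18 members (41.9%, against 17.99% of all genes) and knockout 66 the lowest for 15 (34.9%, against 24.9%). Within the knockout group, knockout 66 was lowest for 28 of 43 members (65.1%, against 38.7% of all genes). The SD was larger in knockout than in wild-type for 67.4% of members, close to the 63.8% of all genes.

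The size of the members' median depended on knockout 66 and knockout 1. Knockout 66 had the highest median signal over all probe sets, 113.9 against 92.0 to 111.3, and the lowest array weight in limma, 0.33 against 0.68 to 2.53. Without it the median of the members was 0.15, 34 of 43 were above 0, and 15 did not overlap, 34.9% of members where all genes gave 24.9% with 5 arrays. At an unadjusted p under 0.05 there were then 7 members, 16.3% against 7.41% of all genes: Aurkb, Cdca8, Hmmr, Kif22, Smc2 and Ube2c higher and Cenpf lower. None passed the adjustment. Without knockout 1 the median was -0.008 and 21 members were above 0.

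**Figure D4:**
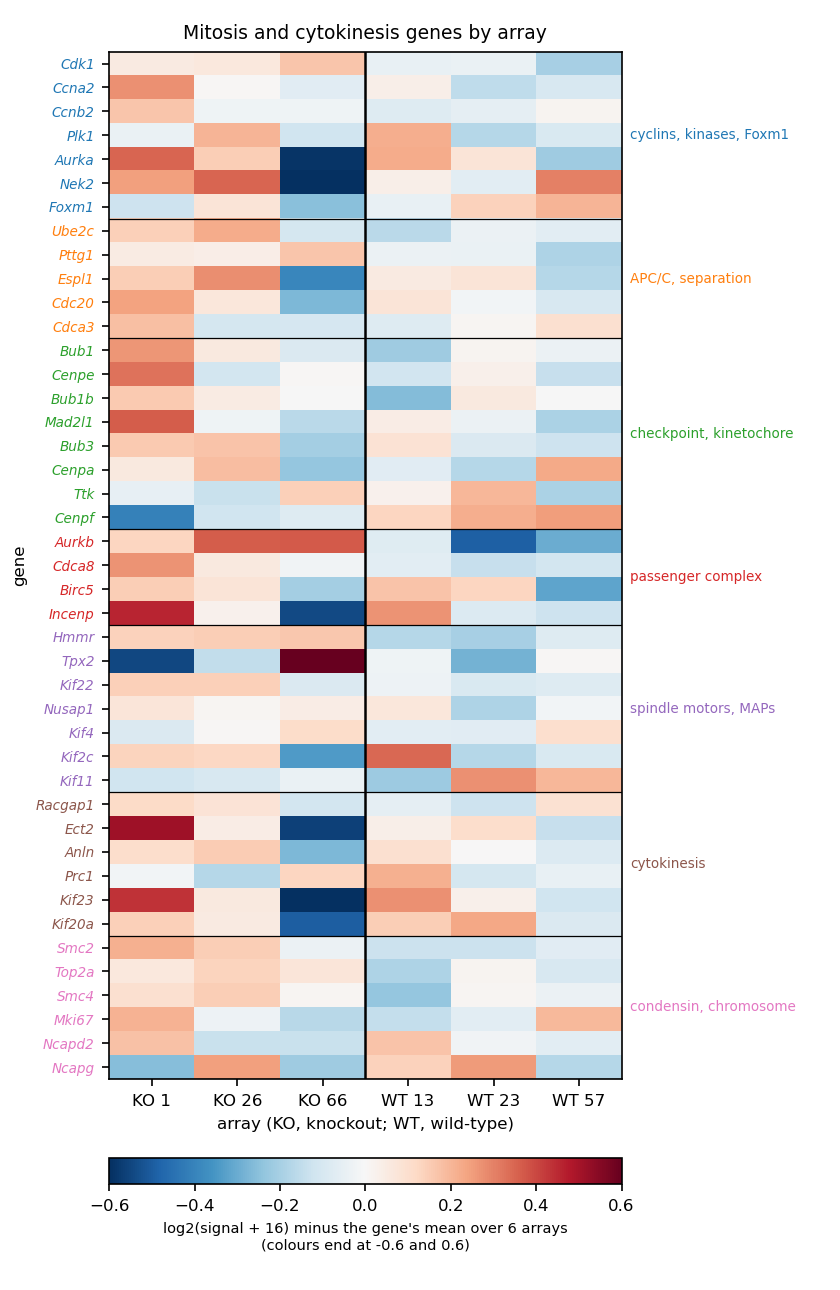
Each gene's log2(signal + 16) on each array minus its mean over the 6 arrays, with 43 members in rows grouped by function and arrays in columns; red is higher, blue lower, and colours end at -0.6 and 0.6. Knockout 1 is mostly red and knockout 66 mostly blue, with Tpx2 in the reverse order.

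Genes of the same processes outside the member list were mostly above 0 as well. Of 80 other mitosis genes listed, 68 were tested, and 0 passed limma's adjusted test. Of the 68, 47 were above 0 (69.1%, against 50.4% of all genes), with a median of 0.12 against 0.002 over all genes. At an unadjusted p under 0.05 in limma, 3 of the 68 were higher and 2 lower, where all genes gave 2.18% and 2.51%. The kinetochore genes Nuf2 (-0.47 ± 0.17) and Cenpt (-0.42 ± 0.17) were below 0. Nuf2 read 313 ± 62.8 (SD, n = 3) in knockout against 436 ± 26.5 in wild-type. Other kinetochore genes of this list lay on both sides of 0. Ska1, whose product couples kinetochores to microtubules, was at 0.49 ± 0.21. Of 15 genes of the DREAM and MuvB complexes and NF-Y, 9 were above 0 (60%, against 50.4% of all genes) with a median of 0.03. The smallest p there was that of Mybl2, the MYB partner of MuvB, at 131, 151 and 153 on knockout arrays 1, 26 and 66, against 99.7, 68.2 and 112 on wild-type arrays 13, 23 and 57 (0.58 ± 0.26, unadjusted p = 0.0513 and adjusted p = 0.974 in limma). Its wild-type mean, 93.2, was under the 95.2 level at which probe sets were kept. Mybl2 was thus kept only through its knockout arrays, and its difference lies near the floor.

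Genes of S phase and replication had the same order of knockout arrays. Of 27 tested, 21 were above 0 (77.8%, against 50.4% of all genes) with a median of 0.10, and none passed the adjusted test. Their median deviation was 0.25 in knockout 1, 0.05 in knockout 26 and -0.09 in knockout 66, against 0.002, -0.06 and -0.12 on wild-type arrays 13, 23 and 57. As for the members, knockout 1 was highest and knockout 66 lowest among the knockout arrays. Pcna, the sliding clamp of DNA polymerases, gave 0.23 ± 0.08, with 8328, 7696 and 8238 on knockout arrays and 7160, 6821 and 6652 on wild-type arrays, without overlap.

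Other measures differed between arrays or genotypes as well, and their part in the members' values was not tested. Of the 43 members, 15 were among the brightest 1166 genes, whose median difference was 0.04. The genes at least as bright as the median member had a median of 0.04. The members' own 0.026 covers all 43, dim ones included, so it is not a like comparison. A median over the bright members alone was not computed. The 3' to 5' ratio of actin was 2.49 to 2.57 in knockout and 2.05 to 2.24 in wild-type, and that of Gapdh 1.28 to 1.45 against 1.12 to 1.196. Both ratios were higher on every knockout array than on any wild-type array, so they cannot be told apart from genotype here. Of 8 markers of erythroid cells, which divide in the embryonic circulation, 5 were kept. Their summed signal was 70953 in knockout 1, 54509 and 56184 in the other knockout arrays and 49204 to 58452 in wild-type. Globin genes made up most of that sum. Alas2 read 1283, 552 and 335 on knockout arrays 1, 26 and 66, against 653, 406 and 926 on wild-type arrays 13, 23 and 57. Klf1 read 723.5, 281.5 and 191 against 403, 157 and 419. Hbb-bh1 and Hba-x had the same order of knockout arrays, while in Hbb-y knockout 26 was the lowest of them.

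The markers of other cell types were summed in the same way. The 8 endothelial and endocardial markers summed to 4407 to 4644 in knockout and 4334 to 4595 in wild-type, and the 8 epicardial markers to 5098.5 to 6113 against 4950.5 to 5486. The 8 markers of cushion mesenchyme and fibroblasts summed to 7167 in knockout 1, 6914 in knockout 26 and 9396 in knockout 66, against 8470 to 9546 in wild-type, so knockout 66 was the high knockout array there. Of these 8, 6 were below 0 with a median of -0.30. At an unadjusted p under 0.05 in limma, 4 of the 8 were lower in knockout, where all genes gave 2.51%. None of them passed the adjustment. At an unadjusted p under 0.05 in limma, 1 epicardial, 1 cardiomyocyte and 1 erythroid marker was higher, from 8, 10 and 5 tested. All genes gave 2.18%. Krt8, the epicardial one, gave 0.80 ± 0.18 without overlap (unadjusted p = 0.00083 and adjusted p = 0.742 in limma). The others were Myl2 and Hbb-y. Of the 8 epicardial markers, 4 were above 0 and 4 below. The 10 cardiomyocyte markers summed to 102130 to 114545 against 98841 to 107454. The 3 kept leukocyte markers of 6 summed to 680 to 825 against 846 to 866, with Cd68, Fcer1g and Tyrobp not among the genes tested.

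**Figure D5:**
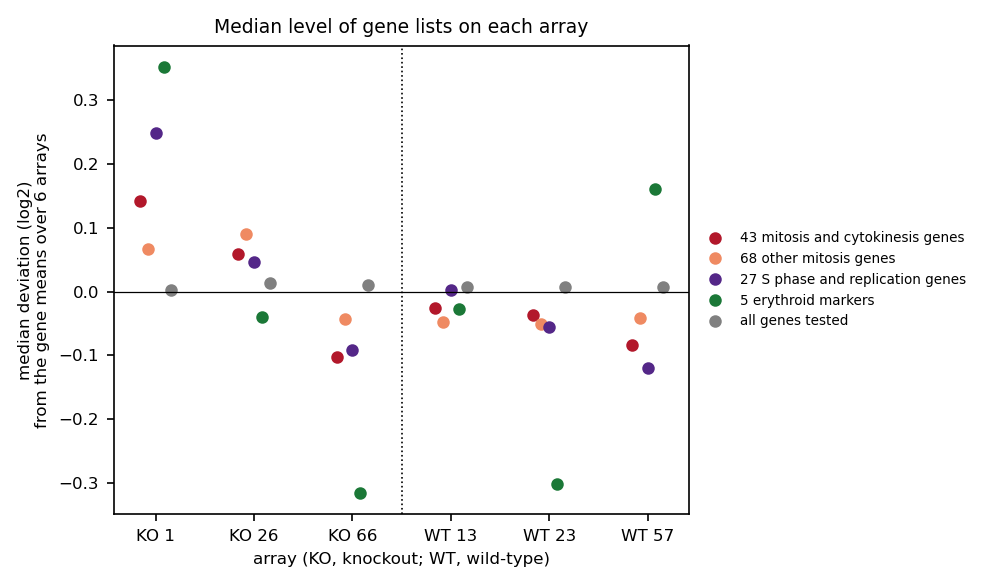
Median deviation (log2) of 5 gene lists from the gene means over 6 arrays, for each array. The members (dark red), other mitosis genes (orange) and S phase genes (purple) are highest on knockout 1 or 26; erythroid markers (green) are highest on knockout 1 and lowest on knockout 66, and all genes (grey) stay near 0.

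The presence of the CHR-type hexamer near the start was set against the members' difference between genotypes. The 26 tested members with TTTGAA within 50 bases of the start had a median of 0.025, with 16 above 0, and the 10 with a window but no such match had a median of 0.05, with 7 above 0. This is a description with no test.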

How the data were processed

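Affymetrix mouse 430 2.0 arrays of 6 ventricle samples were analysed. The authors deposited 1 linear intensity per probe set and array. The submitters' processing notes name GCOS and MAS5 as tools, without version or scaling target. Every array had a 2% trimmed mean of 250, so signals are relative to the rest of an array. Precision is limited by having 3 arrays a genotype, and p-values cover only their spread. Array medians were 92.0 to 113.9.

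Of 45101 probe sets, 64 were controls. Intensities were transformed as log2(intensity + 16), and the 22518 probe sets above the median of mean log2 values (controls left out) were fitted with limma 3.58.1 under R 4.3.3 (lmFit, eBayes with a trend, two-sided). Each gene took its brightest kept probe set with 1 symbol in the platform annotation, giving 11661 genes, adjusted by the Benjamini-Hochberg method and called at 0.05. The fit was tested on simulated data. The members, subgroups, comparison lists, markers and motifs were chosen with earlier results of these data known. Members were described array by array when their genotypes did not overlap or when they had 1 of the 2 smallest p in a subgroup, 14 in all. Others were given array by array where probe sets or arrays disagreed, chosen after their values were seen. Up to 3 genes of other lists were named by smallest p, except the erythroid genes, which were chosen after their values were seen. Alternatives were pseudocounts of 1 and 64, no filter or the 70th percentile, quantile or median normalization, eBayes without a trend or robust, array weights, no _x_at or _s_at probe sets, averaging a gene's probe sets, a threshold of 0.1 and each array left out. Plots used Matplotlib 3.10.9 (Python 3.11.15). RefSeq promoters were matched by symbol for 37 of 44 members.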

Additional observations from a re-analysis of the deposited data

How the results depend on the processing

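No member was called under any of the 18 alternatives, which included each array left out. Over all genes, array weights called 8, and the arrays left out gave 0 to 2. Members with an unadjusted p under 0.05 numbered 3, but 8 with array weights (18.6%, all genes 12.1%) and 1 on averaging a gene's probe sets (2.33%, all genes 4.80%), and 2 to 7 with an array left out, 7 being without knockout 66 (16.3%, all genes 7.41%). Members whose genotypes did not overlap numbered 8, but 3 after centring on array medians (6.98%, all genes 8.22%), 5 without _x_at and _s_at probe sets (11.9%, all genes 10.7%) and 4 on averaging a gene's probe sets (9.30%, all genes 10.9%). With an array left out, where fewer arrays overlap less, it was 10 to 15, with 23.3% against 23.2% of all genes without knockout 1 and 34.9% against 24.9% without knockout 66. The median of the members ran from -0.0078 without knockout 1 to 0.15 without knockout 66. The log2 difference turned sign on averaging a gene's probe sets in Pttg1 (-0.016), Kif22 (-0.025), Hmmr (-0.018) and Top2a (-0.11), without _x_at and _s_at probe sets in Cdca8 (-0.099) and Kif22 (-0.18), and without knockout 66 in Kif20a and Kif23. With an array left out, Kif20a ran from -0.32 to 0.00021 and Kif23 from -0.37 to 0.18, and the members above 0 from 21 to 34. Aurkb has no value without _x_at and _s_at probe sets. The cause of these turns was not tested. No paired analysis was possible because the labels do not say which littermates belong together and the genotypes share no replicate number. The spread of 3 arrays a genotype limits what could be seen.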
